A study of Mus musculus with 2 samples.

Results

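The 9 genes described here handle arginine and the polyamines made from it: Arg1, Arg2, Nos2, Ass1, Slc7a2, Odc1, Srm, Sms and Sat1. They were taken by symbol from the 32285 genes of the count tables, and all 9 were found. The group was chosen by the Arg1 level, which was lower in macrophages of the treated library, so the difference in Arg1 between the libraries in these cells is a description and is not independent evidence. The 2 libraries of single-cell RNA-seq compared were both made from the calvaria of C57BL/6 mice with a bone defect of 1.8 mm. The GA library came from mice injected intraperitoneally with gambogic amide (GA), a small molecule agonist of the nerve growth factor receptor TrkA, at 1.2 mg/kg in 100 µL of 10% DMSO. That dose is the one on the sample labels, and the published methods state a higher one. The control library came from mice given 100 µL of 10% DMSO alone. In both, injections began 24 h before the injury and were given daily for 1 week, and tissue from 5 mice of 2 months was pooled at day 7. Pooling leaves 1 library per condition, so no difference below has a replicate check, no test between conditions was made, and every interval covers counting error only. With 1 library each, effects of GA and differences between the 2 preparations cannot be told apart.

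Arginine stands at a branch point in myeloid cells. Arginase (Arg1 in the cytosol, Arg2 in mitochondria) splits it into urea and ornithine, while inducible nitric oxide synthase (Nos2) turns it into nitric oxide and citrulline, and the Arg1-to-Nos2 balance is a textbook readout of macrophage activation. Slc7a2 is a cationic amino acid transporter that brings arginine into the cell, and Ass1 starts the rebuilding of arginine from citrulline. Ornithine decarboxylase (Odc1) commits ornithine to polyamines, spermidine synthase (Srm) and spermine synthase (Sms) extend the chain, and Sat1 acetylates spermidine and spermine for breakdown or export. Polyamines are needed for growth and translation, and ornithine is also a source of proline for collagen.

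The GA matrix held 182949385 unique molecular identifiers (UMIs) over 9322 barcodes and the control matrix 214993030 UMIs over 8718 barcodes, with 23 barcode strings present in both. After limits on depth and mitochondrial share and removal of predicted doublets, 8380 GA and 7553 control cells remained, with medians of 10968.5 and 16299 UMIs. Cells were clustered without the 9 genes, so that the clusters do not rest on them, and named from marker genes. In all, 10 classes had at least 50 cells in each library. The classes used most below are macrophage-like cells (1398 GA, 1945 control), neutrophil-like cells (4405 and 2084) and mesenchymal-like cells (788 and 1666). Their defining markers were present in both libraries: in the macrophage-like class the 10 markers summed to 7707 and 8409 CPM (UMIs scaled to the same total in every class and library) and none was at 0. The 10 include monocyte genes such as Ly6c2, and the class takes in monocyte-like cells as well as macrophages. Its Ly6c2-rich sub-clusters 2, 3 and 5, described below, were 12.3%, 10.9% and 13.2% of its GA cells. In control they were 7.46%, 6.89% and 4.37%. The complement gene C1qa alone stood at 1594 CPM in GA and 2151 CPM in control. Neutrophil marker RNA was more abundant in the GA library in 8 of the other 9 of these classes, and less abundant in progenitor-like cells (24162 CPM in GA, 30548 CPM in control). The 10 neutrophil markers summed to 3172 CPM in GA against 383 CPM in control macrophage-like cells, and to 1863 against 247 CPM in mesenchymal-like cells. In macrophage-like cells this sum does not separate RNA of neutrophils from RNA of monocyte-like cells. The marker S100a8 stood at 1090, 1160 and 2791 CPM in sub-clusters 2, 3 and 5 over both libraries. It was 4056 CPM in sub-cluster 4. The part of neutrophil RNA in the differences below was not tested, except where a value is given.

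Levels are given in CPM, that is, the UMIs of a gene summed over the cells of a class and divided by all UMIs of that class. They compare a gene with itself across classes and libraries, not genes with each other, because 3′ counts of different genes are not on 1 scale. A ratio is the log2 of GA over control, and "past the fold" means at least 1 log2 unit in either direction with at least 20 UMIs over both libraries.

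Arg1 (ENSMUSG00000019987, chr10:24915221-24927484, minus strand, GRCm38) was found mainly in macrophage-like cells: of its 4202 UMIs in GA 94.1% were there, and of its 21141 in control 96.2%. In these cells its level was 129 CPM in GA (95% interval 125 to 133, 3956 UMIs) and 498 CPM in control (491 to 505, 20337 UMIs). The control level was 3.86-fold higher, a ratio of -1.95 (-2.00 to -1.90). The median ratio over the 10674 genes with at least 200 UMIs in this class was 0.10, relative to which Arg1 stood at -2.05.

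Outside the macrophage-like class Arg1 was low. Dendritic-like cells had 16.8 CPM in GA (12.8 to 21.8) and 45.5 CPM in control (40.4 to 51.0), a ratio of -1.43 (-1.87 to -1.02) in the same direction. This class scored almost as high for macrophage as for dendritic markers (5.20 and 5.60). It carried macrophage marker RNA at 3925 CPM in GA and 3121 CPM in control, whose part in its Arg1 was not tested. With cells named one by one the ratio was -4.14. Osteoclast-like cells, with 31 and 62 cells too few for a ratio, had 22.8 and 63.3 CPM. In mesenchymal-like cells it was 2.58 and 2.17 CPM, and the interval of that ratio held 0 (-0.10 to 0.59). Neutrophil-like cells had 0.305 CPM in GA and 0.959 CPM in control from 13 and 15 UMIs. Progenitor-like cells had 0.589 and 1.63 CPM from 13 and 11 UMIs. B-like cells, which should lack the gene, had 0.610 and 1.79 CPM from 4 and 11 UMIs, so the levels in neutrophil-like and progenitor-like cells are no higher than this background. T- or NK-like cells had 3.18 and 2.82 CPM from 6 and 5 UMIs and osteoblast-like cells 1.28 and 0.406 CPM from 4 and 1 UMIs. Plasmacytoid dendritic-like cells had no Arg1 UMI in either library, which allows up to 2.58 CPM in GA and 3.60 CPM in control at 3 counts. Erythroid-like cells had 0.662 and 13.8 CPM from 1 and 25 UMIs, and the control cells of this class also had more mesenchymal marker RNA (4729 CPM against 155) and macrophage marker RNA (397 CPM against 53.6).

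**Figure D1:**
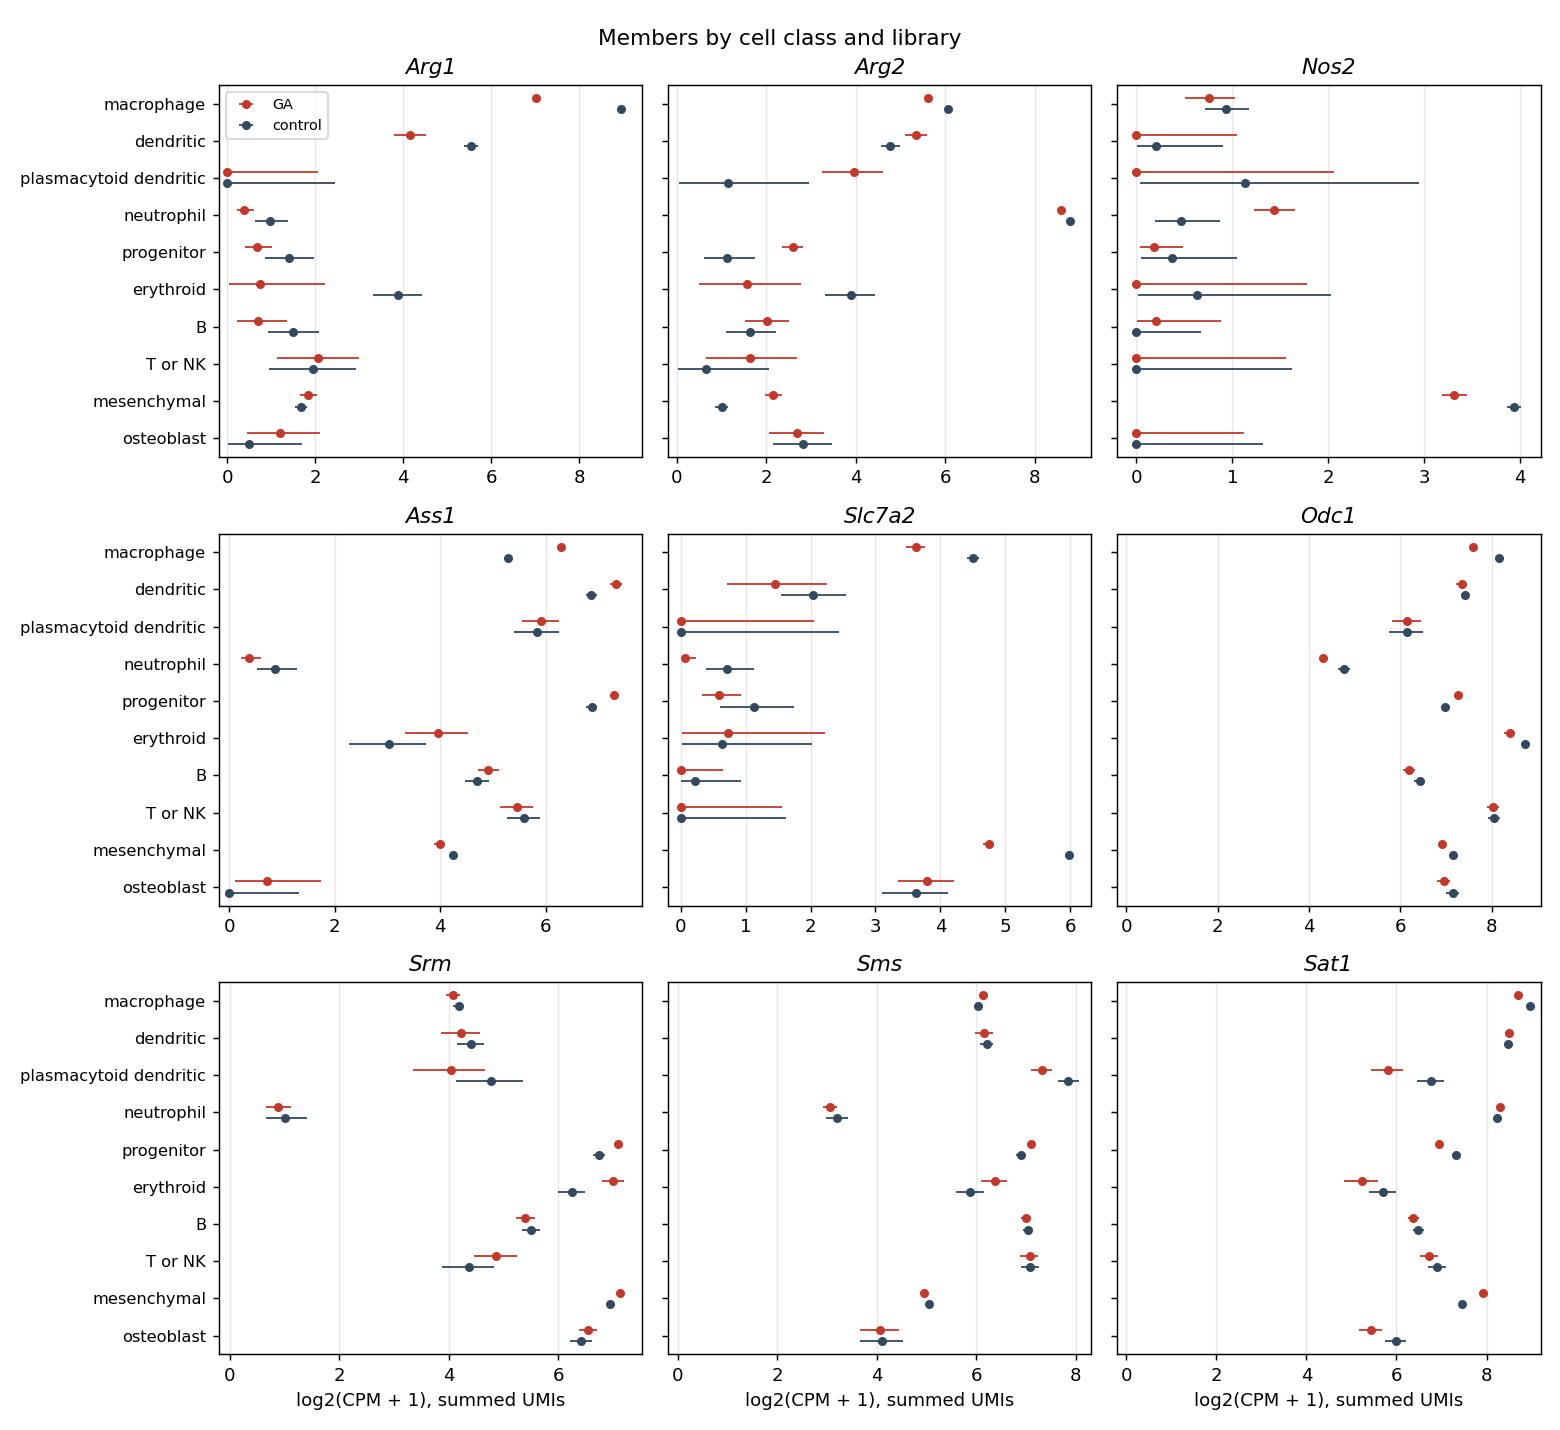
Level of each of the 9 genes, as log2(CPM + 1) of summed UMIs on the x axis, in the 10 classes with at least 50 cells per library (y axis), with GA in red and control in dark blue. Bars are exact 95% Poisson intervals. Arg1 stands out in macrophage-like cells (129 and 498 CPM), Arg2 in neutrophil-like cells, Nos2 and Slc7a2 in mesenchymal-like cells, and Odc1, Srm, Sms and Sat1 are present in most classes.

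Both the share of macrophage-like cells with Arg1 and its amount in those cells were lower in the GA library. That share is over the whole class, including the Ly6c2-rich monocyte-like cells, which were a larger part of the class in GA. At least 1 Arg1 UMI was found in 344 of 1398 GA cells (24.6%) and 683 of 1945 control cells (35.1%). With every cell cut down to 2000 random UMIs (thinning) the shares were 11.8% and 21.8%, against 0% and 0.520% of B-like cells thinned the same way. Median depths were 19905.5 and 20199 UMIs in macrophage-like cells and 6472 and 5934 UMIs in B-like cells. Among macrophage-like cells with the gene, the median was 180 CPM per cell in GA and 491 CPM in control. Cells with 50 or more Arg1 UMIs numbered 12 (0.858%) in GA and 139 (7.15%) in control. The transcript was concentrated in few cells, and the 140 GA and 195 control cells with most (10% of each) carried 89.0% and 78.6% of the Arg1 UMIs. The 5 cells with most Arg1 UMIs held 554 of 3956 in GA and 1219 of 20337 in control, and without them the ratio was -2.08.

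Macrophage-like cells were clustered again, also without the 9 genes, into 12 sub-clusters. Sub-clusters 1, 6 and 7 held most of the transcript. Sub-cluster 1 (227 GA and 348 control cells), rich in the complement gene C1qa (1985 CPM) and in Spp1, or osteopontin (8244 CPM), held 51.8% of GA and 60.9% of control Arg1 UMIs. Its level was 416 CPM in GA and 1539 CPM in control, a ratio of -1.89 (-1.96 to -1.82). Sub-cluster 6 (91 and 169 cells), with the most Spp1 (17326 CPM) and Ccl24 (368 CPM), had 204 and 639 CPM, a ratio of -1.65 (-1.78 to -1.51). Sub-cluster 7 (61 and 140 cells) had 575 and 819 CPM, with a smaller difference of -0.51 (-0.61 to -0.41). Sub-cluster 0 (250 and 540 cells), with Apoe at 33202 CPM, had 53.3 and 82.8 CPM. Sub-cluster 9, with the most Apoe (57415 CPM) and C1qa (7733 CPM), had 0 and 2 Arg1 UMIs. The sub-clusters rich in Ly6c2, a gene of classical monocytes, differed among themselves. Sub-cluster 2 (Ly6c2 at 1250 CPM) had 0 and 3 UMIs and sub-cluster 5 (2146 CPM) had 3 and 1 UMIs. Sub-cluster 3 (1152 CPM), which also had the most Vcan (1914 CPM), had 5.49 CPM in GA and 91.2 CPM in control, a ratio of -4.05 (-4.87 to -3.33).

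Arg1 was lower in GA in 7 of the 7 sub-clusters with at least 20 UMIs, each with an interval below 0. The mix of sub-clusters also differed between the libraries. Sub-cluster 5, dividing cells with Ly6c2 and Mki67 (739 CPM), made up 13.2% of the class in GA and 4.37% in control, and sub-cluster 0 made up 17.9% and 27.8%. For fixed-mix ratios each sub-cluster was weighted by its share of the UMIs of the class, not of its cells. The shares of the control library gave a ratio of -1.45 and those of the GA library -1.55, against -1.95 as observed. Sub-cluster 4 (111 and 160 cells) had a median of only 2075 UMIs and carried Col1a1 at 11003 CPM, a mesenchymal collagen gene. It held 0.278% and 0.693% of the Arg1 UMIs.

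**Figure D2:**
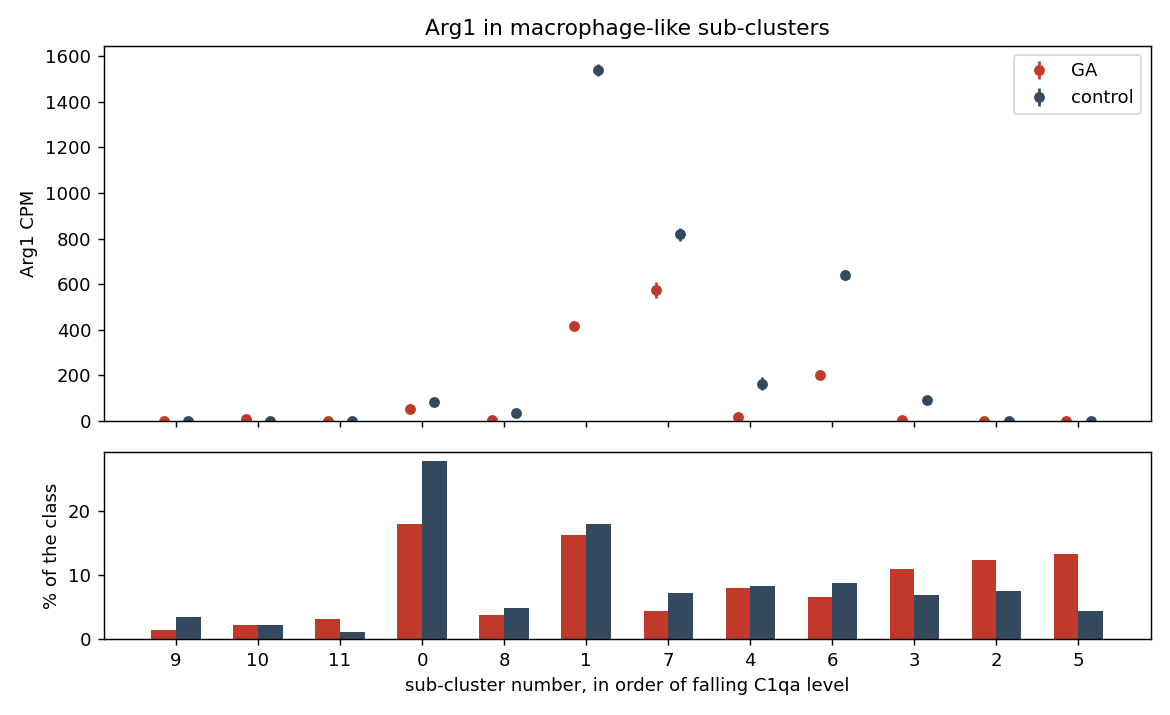
Arg1 level in CPM with exact 95% Poisson intervals (upper panel) and share of the class in percent (lower panel) for the 12 sub-clusters of macrophage-like cells, ordered by falling C1qa, with GA in red and control in dark blue. Sub-clusters 1, 6 and 7 carry most Arg1 and are higher in control (1539, 639 and 819 CPM) than in GA (416, 204 and 575 CPM), and sub-clusters 2 and 5 are near 0.

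The genes whose level across the 10 classes and both libraries was most like that of Arg1 were Ms4a14 (Pearson r = 0.96), Ms4a7 (r = 0.96) and 8030453O22Rik (r = 0.95), over 20 class-by-library profiles that share libraries and depth.

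Arg2 (ENSMUSG00000021125, chr12:79130777-79156301, plus strand) followed another cell type. Neutrophil-like cells held 89.4% of its 18396 GA UMIs and 69.4% of its 9928 control UMIs, and macrophage-like cells 27.1% of the control UMIs. In neutrophil-like cells the level was 386 CPM in GA (380.0 to 391.8) and 441 CPM in control (431 to 451). The ratio was -0.19 (-0.23 to -0.15), or -0.06 relative to the class median of -0.13. Over all cells, Arg2 was 2.12-fold higher in GA, at 115 against 54.1 CPM, where neutrophil-like cells made up 52.6% of GA and 27.6% of control cells.

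Within the neutrophils Arg2 differed between states far more than between libraries. Camp, a granule gene of immature neutrophils, was at least 24355 CPM in sub-clusters 3, 5, 6 and 8, where Arg2 was between 14.0 and 150.5 CPM. In the other 5 sub-clusters Camp was at most 4236 CPM and Arg2 was between 509 and 1366 CPM. The dividing sub-cluster 6 (327 and 176 cells), with Camp at 48261 CPM and Mki67 at 601 CPM, had 16.8 CPM in GA and 14.0 CPM in control. Sub-clusters 3 and 5, rich in the granule genes Ltf and Ngp, had 118 and 123 CPM in GA and 113 and 129 CPM in control. The highest levels were in sub-cluster 0, with the cytokine gene Il1b at 7943 CPM and the chemokine receptor gene Cxcr2 at 914 CPM: 1123 CPM in GA and 1366 CPM in control. Sub-cluster 1 followed with 916 and 1154 CPM. Within the low-Camp sub-clusters the order of Arg2 did not follow that of Camp. Between libraries the ratio of the 9 sub-clusters lay from -0.33 in sub-cluster 1 to 0.28 in sub-cluster 4.

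**Figure D3:**
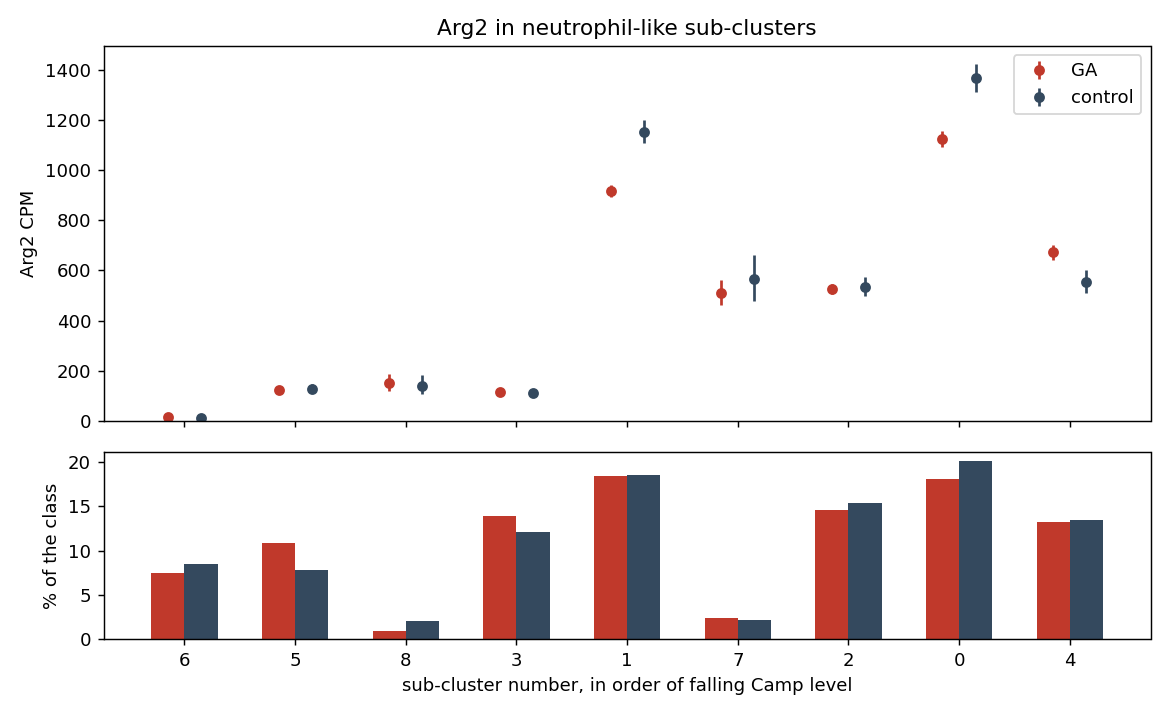
Arg2 level in CPM with exact 95% Poisson intervals (upper panel) and share of the class in percent (lower panel) for the 9 sub-clusters of neutrophil-like cells, ordered by falling Camp, a granule gene of immature neutrophils. Levels are lowest in the dividing sub-cluster 6 (16.8 CPM in GA, 14.0 in control) and highest in sub-cluster 0 (1123 and 1366 CPM), with both libraries close in most sub-clusters.

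In macrophage-like cells Arg2 stood at 47.8 CPM in GA (1466 UMIs) and 65.8 CPM in control (2686 UMIs), a ratio of -0.46 (-0.55 to -0.37). Dendritic-like cells had 39.7 and 26.3 CPM, the other way round, with a ratio of 0.59 (0.26 to 0.93). Progenitor-like cells had 5.03 CPM in GA and 1.19 CPM in control from 111 and 8 UMIs, a ratio of 2.08 (1.05 to 3.33), and 5 GA cells held 43 of the 111. That ratio was past the fold in 12 of 19 alternative settings and turned to -0.33 without removal of predicted doublets. Mesenchymal-like cells had 3.47 and 1.00 CPM from 152 and 94 UMIs, a ratio of 1.79 (1.41 to 2.18). With the mix of mesenchymal sub-clusters held at that of the control library it was 0.83, short of the fold, and with the GA mix 1.19. Sub-cluster 6 of this class (17 GA and 3 control cells) carried S100a8, a neutrophil marker gene, at 17567 CPM, against at most 143 CPM in the others. The part of this sub-cluster in the Arg2 ratio was not tested separately. The remaining classes had between 0.565 and 14.6 CPM. Neutrophil marker RNA and Arg2 were both higher in GA in mesenchymal-like cells. In progenitor-like cells the marker RNA was lower in GA (24162 and 30548 CPM) and Arg2 was higher. That marker sum does not separate the RNA of progenitor-like cells from RNA of neutrophils. In erythroid-like cells the marker RNA was higher (4099 and 2095 CPM) and Arg2 was lower (1.99 and 13.8 CPM, from 3 and 25 UMIs). Macrophage and mesenchymal marker RNA of the erythroid-like class was lower in GA (53.6 and 397 CPM, 155 and 4729 CPM). The part of RNA of neutrophils or of other classes in these Arg2 levels was not tested. Over all mesenchymal-like cells S100a8 stood at 700 CPM in GA and 81.3 CPM in control, and there were 4.95 and 12.3 Arg2 UMIs per 1000 S100a8 UMIs, against 2.95 and 3.86 in the neutrophils themselves. In macrophage-like cells that figure was 30.4 in GA and 464 in control. Genes of like pattern were Gm5150 (r = 0.95), Cd300ld (r = 0.95) and Fpr2 (r = 0.94), the last a formyl peptide receptor of neutrophils.

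Nos2 (ENSMUSG00000020826, chr11:78920787-78960254, plus strand) was nearly absent from the macrophage-like class. Macrophage-like cells had 0.685 CPM in GA and 0.906 CPM in control, from 21 and 37 UMIs in 8 and 13 cells, of which the top 5 cells held 18 and 29. The ratio of -0.40 had an interval that held 0 (-1.25 to 0.41). Of the few Nos2-positive macrophage-like cells, 1 of 8 in GA and 5 of 13 in control also had an Arg1 UMI. No difference in Nos2 between the macrophage-like cells of the libraries was detectable at this depth.

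The Nos2 transcript was instead found mainly in mesenchymal-like cells, with 77.6% of 505 GA UMIs and 94.6% of 1424 control UMIs. The level was 8.94 CPM in GA (8.07 to 9.87) and 14.3 CPM in control (13.6 to 15.1), a ratio of -0.68 (-0.85 to -0.52). Only a minority of cells carried it: 94 of 788 (11.9%) and 226 of 1666 (13.6%), or 1.40% and 1.92% after thinning to 2000 UMIs. The 79 GA and 167 control cells with most held 96.2% and 95.6% of its UMIs. B-like cells, which should lack it, had 1 UMI in GA and 0 in control, and none after thinning. By mesenchymal sub-cluster, Nos2 stood at 19.8 and 30.7 CPM in sub-cluster 5, with the most Mki67 (347 CPM), and at 13.2 and 29.8 CPM in sub-cluster 0, which held 58.9% and 55.8% of its UMIs. It was 3.89 and 18.0 CPM in sub-cluster 4. Each of these 3 had an interval below 0. Sub-cluster 1, with the most Scx (62.9 CPM), a tendon transcription factor gene, had 1 and 12 UMIs, and sub-cluster 3, with the most Eln or elastin (2109 CPM), had 1 UMI in each. Sub-cluster 6 had 35 UMIs in 17 GA cells (28.3 CPM, 19.7 to 39.4) and none in 3 control cells (up to 28.1 CPM). These limits overlap, so no direction is read from them. Sub-cluster 6 carried S100a8 at 17567 CPM. With the mix of sub-clusters held at that of the control or the GA library, the ratio was -1.05 or -0.98, farther from 0 than observed.

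Neutrophil-like cells gave 73 Nos2 UMIs in GA and 6 in control, or 1.71 CPM (1.34 to 2.15) and 0.384 CPM (0.141 to 0.835). The ratio was 2.16 (0.97 to 3.65). The GA UMIs were spread over 42 of 4405 cells, with 19 in the top 5, and over 8 of the 9 sub-clusters. The shares of cells were 0.953% and 0.240%, and 0.343% and 0.0972% after thinning, at median depths of 7056 and 5091.5 UMIs. Endothelial-like cells, with 39 and 52 cells too few for a ratio, had 16.7 and 13.5 CPM. The genes of most similar pattern were Unc93a2 (r = 0.95), Mirg (r = 0.95) and Sox11 (r = 0.95).

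Slc7a2 (ENSMUSG00000031596, chr8:40862396-40922308, plus strand), the arginine transporter, was mainly mesenchymal, with 73.2% and 85.2% of its 1548 GA and 6895 control UMIs. In mesenchymal-like cells it stood at 25.8 CPM in GA (24.3 to 27.4, 1133 UMIs) and 62.5 CPM in control (60.9 to 64.1, 5875 UMIs), a ratio of -1.28 (-1.37 to -1.18), which was below 0 in 20 of 20 alternative settings and past the fold in 11, with -0.75 the nearest to 0. At least 1 UMI was found in 39.6% and 54.6% of the cells, or 6.22% and 9.004% after thinning. Median depths of this class were 51995.5 and 51443 UMIs. Among B-like cells 0 of 585 and 1 of 579 had the gene, and none after thinning. The gene was lower in GA in 6 of 7 sub-clusters, each with an interval below 0. The greatest difference with at least 100 cells per library was in sub-cluster 0 (14.2 and 61.0 CPM, -2.10, -2.30 to -1.91), followed by sub-cluster 4 (41.4 and 97.4 CPM, -1.23) and sub-cluster 2 (13.8 and 30.5 CPM, -1.14). The elastin-rich sub-cluster 3 was the exception, with 103 and 87.3 CPM (0.24, 0.01 to 0.47), and it was also 21.0% of control but 5.96% of GA cells of this class. With the control mix the ratio was -0.70 and with the GA mix -1.26. Sub-cluster 6 carried 1.85% and 0.323% of the Slc7a2 UMIs.

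In macrophage-like cells Slc7a2 was likewise lower in GA, at 11.3 CPM (346 UMIs) against 21.7 CPM (885 UMIs). The ratio of -0.94 (-1.13 to -0.76) was just short of the fold, and thinning to 2000 UMIs brought it to -0.29. Of 8 sub-clusters with at least 20 UMIs, 6 had an interval below 0, and the Arg1-rich sub-cluster 1 had one above 0 (32.2 and 24.8 CPM, 0.07 to 0.68). After thinning, 9 of 157 GA macrophage-like cells with Arg1 also had Slc7a2 (5.73%) against 14 of 1171 without Arg1 (1.20%), and in control 22 of 403 (5.46%) against 23 of 1444 (1.59%). The exact 95% intervals of these shares did not overlap within either library (2.65% to 10.6% against 0.655% to 2.00% in GA, 3.45% to 8.15% against 1.01% to 2.38% in control), and cells of 1 library are not replicates. The same comparison was made for 5 other members. Sat1 went the other way, found in 39.5% of cells with Arg1 against 53.1% without in GA and in 45.9% against 59.6% in control, with intervals that did not overlap. Odc1 was found in 22.3% against 20.2% in GA and 33.0% against 26.5% in control. For Arg2, Ass1 and Nos2 the intervals overlapped in both libraries. How many of all genes separate cells with and without Arg1 in this way was not counted. Arg1 lay mainly in a few sub-clusters, so nothing particular to Slc7a2 or Sat1 is read from these shares. The level in osteoblast-like cells was 12.8 and 11.4 CPM (0.18, -0.56 to 0.93), and the other 7 classes had at most 3.11 CPM.

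Ass1 (ENSMUSG00000076441, chr2:31470207-31520672, plus strand) was past the fold in macrophage-like cells in the direction opposite to Arg1. Its level was 77.0 CPM in GA (73.9 to 80.2, 2361 UMIs) and 38.2 CPM in control (36.3 to 40.1, 1558 UMIs), a ratio of 1.01 (0.92 to 1.11). The ratio was above 0 in 20 of 20 alternative settings but past the fold in only 8, and was 0.15 without removal of predicted doublets. The sub-cluster with most of the GA Ass1 UMIs had almost no Arg1, but Ass1 was also found in the Arg1-rich sub-cluster 1. After thinning, Ass1 was found in 8.28% of GA macrophage-like cells with Arg1 and 10.7% of those without. In control these shares were 5.71% and 6.30%. Sub-cluster 5, the dividing Ly6c2-rich cells, held 60.7% of GA and 22.7% of control Ass1 UMIs, at 205 and 170 CPM. The Apoe-rich sub-cluster 0 had 12.7 and 8.24 CPM and the Arg1-rich sub-cluster 1 had 38.1 and 33.8 CPM. With the sub-cluster mix held fixed, the ratio shrank to 0.13 with the control mix and 0.19 with the GA mix. By their intervals 3 of 8 sub-clusters were above 0 and 1 below. The 6 genes of division summed to 793 CPM in GA and 230 CPM in control macrophage-like cells.

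Ass1 was also high in dendritic-like cells (160 and 115 CPM, ratio 0.48, 0.32 to 0.64) and progenitor-like cells (156 and 116 CPM, ratio 0.43, 0.31 to 0.54). In progenitor-like cells it was found in 75.7% of GA and 47.9% of control cells, where median depths were 47717 and 27554 UMIs, and in 21.1% and 16.1% after thinning. Neutrophil-like cells, where the gene was near 0, had 0.250% and 0.336% of cells with a UMI, and 0.0457% and 0.0972% after thinning. Their level was 0.305 and 0.831 CPM from 13 UMIs each. Mesenchymal-like cells had 14.9 and 18.0 CPM (-0.28, -0.41 to -0.15), a direction kept in 13 of 20 alternative settings and turned to 0.75 by thinning.

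**Figure D4:**
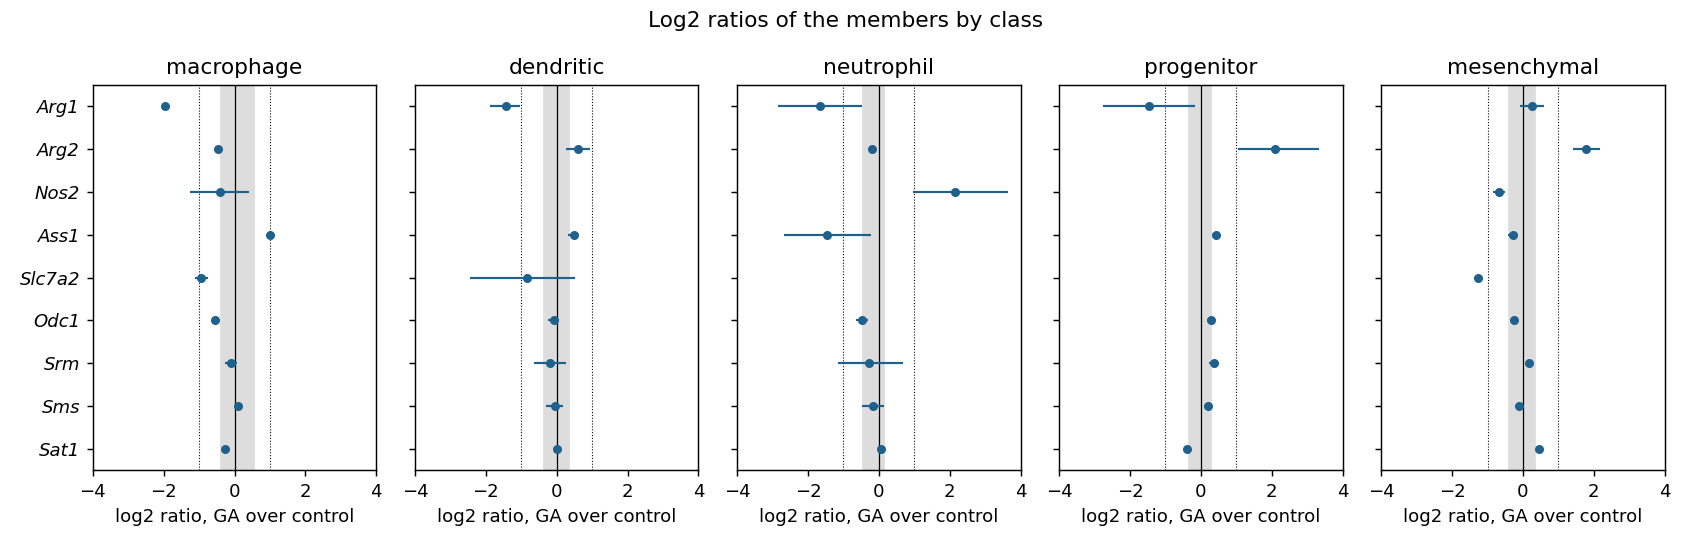
Log2 ratio of GA over control for each member with at least 20 UMIs in 5 classes, with exact 95% intervals for counting error. The grey band spans the 10th to 90th percentile of all genes with at least 200 UMIs in the class and dotted lines mark the fold of 1 log2 unit. Arg1 lies far left in macrophage-like cells (-1.95) and Ass1 at the right dotted line (1.01), while Srm, Sms and Sat1 lie near 0 in most classes.

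Odc1 (ENSMUSG00000011179, chr12:17544794-17551505, plus strand), at the entry to the polyamines, was present in every class. In macrophage-like cells it stood at 193 CPM in GA (188.3 to 198.2) and 284 CPM in control (279 to 289), a ratio of -0.56 (-0.60 to -0.51). Its mix-held ratio was -0.29 or -0.17. The sub-clusters split: of the 12, 5 had an interval below 0 and 3 above it. The Spp1-rich sub-cluster 6 had 290 CPM in GA and 484 CPM in control, and sub-cluster 3, with Vcan and Il1b, had 348 and 268 CPM. Among other classes the level ran from 18.9 and 26.4 CPM in neutrophil-like cells to 337 and 427 CPM in erythroid-like cells. Ratios in mesenchymal-like cells (-0.24, -0.29 to -0.20) and progenitor-like cells (0.28, 0.17 to 0.39) were smaller. With the mesenchymal mix held the ratio was 0.06 or -0.05, and thinning turned the progenitor ratio to -0.20.

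Srm (ENSMUSG00000006442, chr4:148591503-148594993, plus strand) and Sms (ENSMUSG00000071708, chrX:157443855-157492287, minus strand) extend the polyamine chain. In macrophage-like cells Srm had 15.9 and 17.2 CPM (-0.11, -0.28 to 0.06) and Sms 69.1 and 64.0 CPM (0.11, 0.03 to 0.19). Srm stood at 139 and 122 CPM in mesenchymal-like and 136 and 106 CPM in progenitor-like cells, against 0.844 and 1.02 CPM in neutrophil-like cells. Within the mesenchymal class it stood at 204 and 198.2 CPM in sub-cluster 0 and at 193 and 195 CPM in sub-cluster 5. Sms had 136 and 117 CPM in progenitor-like cells, 126 and 131 CPM in B-like cells and 7.32 and 8.19 CPM in neutrophil-like cells. In erythroid-like cells Srm had 127 and 75.2 CPM (0.76, 0.43 to 1.09) and Sms 81.4 and 57.5 CPM (0.50, 0.11 to 0.89). Srm in plasmacytoid dendritic-like cells was 15.5 and 26.4 CPM from 18 and 22 UMIs, and the interval of its ratio held 0 (-1.76 to 0.19). The largest Sms difference was in plasmacytoid dendritic-like cells, with 158 and 229 CPM (-0.54, -0.84 to -0.24).

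Sat1 (ENSMUSG00000025283, chrX:155213132-155216449, minus strand), the polyamine acetylase, had its highest level among the 10 classes in macrophage-like cells, 417 CPM in GA and 500 CPM in control (-0.26, -0.30 to -0.23), with 8 of 12 sub-clusters below 0 by their interval. In neutrophil-like cells it was 312 and 299.5 CPM (0.06, 0.01 to 0.11). In mesenchymal-like cells it was higher in GA, at 241 CPM (236 to 246) against 175 CPM (173 to 178), a ratio of 0.46 (0.43 to 0.50). That held in 6 of 7 sub-clusters by their interval, with 0.30 and 0.27 after holding the mix. In progenitor-like cells it was lower, at 122 against 159 CPM (-0.38, -0.49 to -0.28), and in plasmacytoid dendritic-like cells 54.9 against 108 CPM (-0.98, -1.46 to -0.50).

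**Figure D5:**
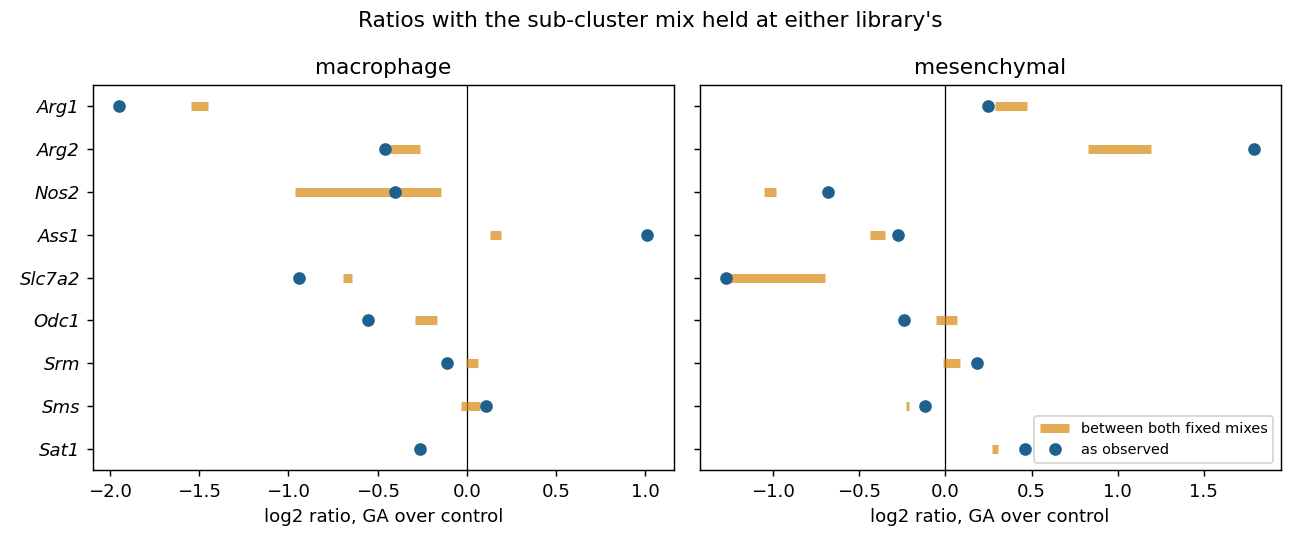
Log2 ratio of GA over control for the 9 genes in macrophage-like (left) and mesenchymal-like (right) cells as observed (blue points) and with the sub-cluster shares of the class UMIs held at those of the control or the GA library (orange bars span the 2 values). Arg1 moves from -1.95 to between -1.55 and -1.45 and Ass1 from 1.01 to between 0.13 and 0.19 in macrophage-like cells, and Slc7a2 stays below 0 in both classes.

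Counted over the group, 2 of 9 members were past the fold in macrophage-like cells, Arg1 and Ass1, beside 5.42% of all genes with at least 200 UMIs, a share from which nothing is read, since Arg1 in these cells chose the group. Mesenchymal-like cells had 2 of 9 (Slc7a2 and Arg2, background 3.45%), neutrophil-like cells 3 of 8 (background 0.994%), progenitor-like cells 2 of 7 (background 1.49%) and dendritic-like cells 1 of 8 (background 1.63%). Erythroid-like cells had 3 of 7 (background 3.19%). In the neutrophil-like, progenitor-like, dendritic-like and erythroid-like classes 1 of these calls each was Arg1, whose level in macrophage-like cells chose the group. Nothing is read from these 4 counts either. In neutrophil-like, progenitor-like and erythroid-like cells each of these calls rested on fewer than 200 UMIs, whereas the background counts only genes with at least that number, so the shares are not on 1 footing. In mesenchymal-like cells Slc7a2 and Arg2 were short of the fold with the control mix of sub-clusters (-0.70 and 0.83). They were past it with the GA mix (-1.26 and 1.19). Slc7a2 was past the fold in 11 of 20 alternative settings and Arg2 in 19 of 19. Nothing is read from the mesenchymal count. None of the members was past the fold in B-like cells (background 0.128%), T- or NK-like cells (0.619%), osteoblast-like cells (1.77%) or plasmacytoid dendritic-like cells (3%), among the 5 or 6 with 20 UMIs in each. The median ratio of the members was -0.40 in macrophage-like cells, beside 0.10 for all genes, and since it includes the Arg1 value that chose the group nothing is read from it. It was -0.12 in mesenchymal-like cells, beside -0.01, and -0.23 in neutrophil-like cells, beside -0.13.

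Other genes of the same pathways were set beside the members, 53 in 9 lists. In macrophage-like cells 45 of the 53 had 20 UMIs, 1 was past the fold (background 5.42%), and their median of 0.07 was close to the 0.10 of all genes. That gene, named after its value was seen, was Nos3, endothelial nitric oxide synthase, at 43 and 27 UMIs (1.08, 0.36 to 1.84). The lowest with at least 200 UMIs was Ddah2, of the nitric oxide synthesis list, at 4.47 and 7.35 CPM (-0.72, -1.02 to -0.42). The highest was Ahcy, which hydrolyses S-adenosylhomocysteine, at 4.73 and 2.47 CPM (0.93, 0.56 to 1.32). By list, the medians in macrophage-like cells were 0.26 for ornithine to proline and glutamate (7 of 7 genes, 1 below 0), 0.22 for methionine salvage and supply (8 of 8 genes), 0.19 for polyamine synthesis and control (5 of 6 genes), -0.03 for nitric oxide synthesis (6 of 7 genes), -0.03 for hypusination (4 of 4 genes), -0.07 for amino acid transport (6 of 8 genes), -0.07 for creatine and agmatine (3 of 4 genes) and -0.11 for polyamine breakdown and transport (5 of 5 genes). Of the urea cycle and citrulline list only 1 of 4 genes was measurable, at -0.05. No pathway gene with at least 200 UMIs in this class was past the fold.

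In neutrophil-like cells 38 of 53 pathway genes had 20 UMIs and 2 were past the fold (background 0.994%), both lower in GA and under 200 UMIs, and named after their values were seen: Slc7a6, an amino acid transporter (24 and 18 UMIs, -1.03), and Gamt, of creatine synthesis (45 and 44 UMIs, -1.41). The list's median was -0.17 beside -0.13 for all genes. With at least 200 UMIs the lowest was Mat2a, which makes S-adenosylmethionine (27.4 and 42.5 CPM, -0.63), and the highest was Atp13a2, a lysosomal polyamine exporter (6.07 and 4.54 CPM, 0.42). In mesenchymal-like cells 47 had 20 UMIs and 2 were past the fold (background 3.45%), both lower in GA and under 200 UMIs: Slc7a3, another arginine transporter (7 and 32 UMIs, -1.09), and Gatm, of creatine synthesis (30 and 131 UMIs, -1.03), likewise named after their values were seen. The median was 0.05 beside -0.01. Among those with at least 200 UMIs the lowest was Ahcy (2.42 and 3.53 CPM, -0.55), which was the highest in macrophages at the same limit. The highest was Slc38a9, a lysosomal arginine sensor (13.1 and 10.7 CPM, 0.29).

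Arg1 is commonly read as a marker of alternative macrophage activation. Of 10 other such genes in macrophage-like cells 3 were past the fold (background 5.42% in either direction, 4.15% higher), all higher in GA. The median of the 10 was 0.60, with Retnla counted at the floor given below. Chil3, a chitinase-like protein, stood at 759 CPM in GA and 203 CPM in control (1.90, 1.87 to 1.94). Within this class it was at 1788, 1527 and 1623 CPM in the Ly6c2-rich sub-clusters 2, 3 and 5, and at most 309 CPM in the others. These made up 12.3%, 10.9% and 13.2% of the class in GA, and 7.46%, 6.89% and 4.37% in control. Chil3 was also at 3552 and 3971 CPM in neutrophil-like cells, and neutrophil marker RNA was higher in the GA macrophage-like cells as given above. The parts of the sub-cluster mix and of neutrophil RNA in the Chil3 level were not tested. Ccl24 stood at 93.5 and 37.2 CPM (1.33, 1.24 to 1.42), and Retnla had 73 UMIs in 7 GA cells and 0 in control. Retnla was 32.4-fold higher in GA with the control class set at the floor of 3 counts. The exact interval of its ratio began at 4.68, for counting error only. Mrc1, the mannose receptor, was 0.16 and Egr2 -0.27. Of the 10 genes of classical activation, 9 had 20 UMIs and 2 were past the fold, both higher in GA: Il6 (1.03, 0.90 to 1.16) and Cxcl9 (1.19, 1.04 to 1.35), with a list median of 0.02. Tnf (-0.71) and Ptgs2 (-0.66) were lower. In neutrophil-like cells 6 of the alternative and 8 of the classical genes had 20 UMIs, with medians of -0.46 and -0.45 and 1 and 2 past the fold (background 0.994%), all lower in GA and the first 2 under 200 UMIs: Pparg (-1.32), Il6 (-1.10) and Cxcl10 (-1.52). In mesenchymal-like cells 7 and 9 had 20 UMIs, with medians of -0.04 and 0.03 and 1 and 2 past the fold (background 3.45%), all higher in GA: Chil3 (2.00), Il1b (1.45) and Cxcl9 (1.32). Mesenchymal sub-cluster 6 (17 GA and 3 control cells), which carried S100a8 at 17567 CPM, had Chil3 at 209 CPM and Il1b at 229 CPM. The other mesenchymal sub-clusters had at most 7.19 and 9.84 CPM. The part of neutrophil RNA in these ratios was not tested. The activation genes named here were chosen after their values were seen.

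Promoter sequences, from 250 bases before to 50 bases after a start in RefSeq (GRCm38.p6), were matched for 4 of the 9 members: Ass1, Odc1, Sms and Sat1. For Ass1 and Odc1 that start is not the gene start given above. The sequences of Ass1 and Odc1 are shown because the observed ratios of these genes differed in direction in macrophage-like cells. With the sub-cluster mix held, those ratios were nearer 0, at 0.13 or 0.19 for Ass1 and -0.29 or -0.17 for Odc1. Capitals mark CACGTG, the E-box read by Myc and related factors, and GGGCGG, the GC box, on either strand. Both lie on the plus strand, Ass1 at chr2:31470020-31470319 and Odc1 at chr12:17544623-17544922.
Ass1: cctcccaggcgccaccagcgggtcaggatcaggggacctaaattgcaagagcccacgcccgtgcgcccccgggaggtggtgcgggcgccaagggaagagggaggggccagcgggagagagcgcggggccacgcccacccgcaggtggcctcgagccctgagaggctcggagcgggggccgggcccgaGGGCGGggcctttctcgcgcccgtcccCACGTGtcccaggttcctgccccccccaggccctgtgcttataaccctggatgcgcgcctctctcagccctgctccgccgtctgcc
Odc1: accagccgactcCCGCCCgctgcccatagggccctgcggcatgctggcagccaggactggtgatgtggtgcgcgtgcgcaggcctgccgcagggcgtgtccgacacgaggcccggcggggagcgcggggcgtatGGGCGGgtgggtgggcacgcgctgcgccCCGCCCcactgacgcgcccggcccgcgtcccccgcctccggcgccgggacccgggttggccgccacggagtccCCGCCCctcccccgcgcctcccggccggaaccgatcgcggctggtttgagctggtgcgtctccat
The Ass1 window held 1 CACGTG and 1 GGGCGG, and that of Odc1 held 0 and 4. Of the 2 windows of Sms, 1 held a CACGTG, and Sat1 held none. Among all 32851 promoters of this length 7.15% held CACGTG and 35.7% held GGGCGG. Searches of both strands for TGACGTCA (the cAMP response element), TTCNNNGAA (the core of STAT sites) and TATAAA (the TATA box) found no match in the 5 windows, beside 1.79%, 8.30% and 13.6% of all promoters. These matches describe letters only, since no binding was measured.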

How the data were processed

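Droplet single-cell RNA-seq was read from 1 filtered matrix per library. The values are UMI counts per gene and cell, deposited by the authors as whole numbers after Cell Ranger 7.0.1 with build mm10, per the file headers and the labels, and were not normalized. Each library pooled 5 mice. The 9 genes, the pathway lists and the comparisons were chosen with earlier results of these data known.

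Cells with 500 to 140000 UMIs, 200 to 9500 genes and at most 15% mitochondrial UMIs were kept. Scrublet's automatic threshold marked 0 GA and 39 control cells (0.447%), which was taken as not having worked, so the highest scores were removed at 0.8% per 1000 barcodes (656 and 540 cells). Pearson residuals of 2000 variable genes without the 9 members, 50 principal components, batch correction written after the published description of Harmony, and Leiden clustering at resolution 1 gave 37 clusters (scanpy 1.11.5, leidenalg 0.10.2, Python 3.11.15). A cluster took the name of the class whose markers stood highest over the median of the other clusters, with a pseudocount of 2 CPM, and 36 were named. Cluster 12 (all dendritic-like cells) and cluster 21 (149 GA and 190 control macrophage-like cells, median 2167 UMIs) had another class within 0.5 of the best. That class was macrophage for cluster 12 and mesenchymal for cluster 21. The naming reference, its pseudocount, the sub-cluster resolution of 0.5 and the fixed-mix ratios were set after the data, member levels included, had been seen and other versions of the naming had been tried. One cluster, led by platelet genes, stayed unnamed.

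UMIs were summed per class and library. CPM have exact Poisson and shares exact binomial 95% intervals, and log2 ratios exact conditional binomial ones (SciPy 1.17.1). All cover counting error only. The floor for a count of 0 was 3 counts. Thinning to 2000 UMIs left out 158 GA and 200 control cells. The log2 ratios, their intervals and the thinning were tested on simulated Poisson counts, which hold counting error only. Doublet removal, batch correction, clustering, naming and the fixed-mix ratios were not tested in this way. The rule for named pathway genes took those with at least 200 UMIs and a fold of at least 1 log2 unit in macrophage-like, neutrophil-like or mesenchymal-like cells, of which there were none, and the highest and lowest of each class. Pathway genes past the fold on fewer UMIs were named outside the rule, after their values were seen. For Arg1, Arg2 and Nos2 the 3 genes of highest Pearson correlation were named. Positions are from GENCODE vM21.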

Additional observations from a re-analysis of the deposited data

Results flagged for a closer look

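Some members were past the fold in opposite directions in different classes, and these differences between classes were not tested, since each condition has 1 library. Arg2 was higher in GA in mesenchymal-like cells (log2 ratio 1.79) and progenitor-like cells (2.08) and lower in erythroid-like cells (-2.80, on 3 and 25 UMIs). The mesenchymal ratio was 0.83 with the sub-cluster mix of the control library and 1.19 with that of the GA library. The progenitor ratio turned to -0.33 without removal of predicted doublets. The neutrophil markers summed to 1863 CPM in GA and 247 CPM in control mesenchymal-like cells, to 24162 and 30548 CPM in progenitor-like cells and to 4099 and 2095 CPM in erythroid-like cells. In erythroid-like cells the macrophage markers summed to 53.6 and 397 CPM and the mesenchymal markers to 155 and 4729 CPM. Ass1 was higher in GA in macrophage-like cells (1.01) and lower in neutrophil-like cells (-1.45), the latter on 13 UMIs in each library. The neutrophil ratio turned to 0.96 without removal of predicted doublets and to 0.14 without the 5 cells with most UMIs. The latter value rests on fewer than 20 UMIs, since that limit was applied before the cells were taken out. The macrophage ratio was past the fold in 8 of 20 alternative settings.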

How the results depend on the processing

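The Arg1 log2 ratio in macrophage-like cells was below 0 and past the fold under each of 20 alternatives. Its value of -1.95 had an interval of -2.00 to -1.90, which does not cover the counting error of the other settings. It moved outside that interval to -1.36 without removal of predicted doublets, -2.03 with a mitochondrial limit of 10%, -1.70 without Harmony, -2.02 and -1.73 at Leiden resolutions 0.5 and 2, -1.83 as the median of 10 further seeds (-2.05 to -1.69), -1.63 with log1p values, -1.89 with cells named one by one, -1.70 for cells of at least 2000 UMIs, -2.05 relative to the class median, and -1.82 both thinned (342 and 1676 Arg1 UMIs) and as a mean over cells. Among alternatives chosen after seeing the data, it was -1.89 with naming pseudocounts of 5 and 10 CPM and -2.08 without the 5 cells with most UMIs. Without doublet removal the GA class held 19957917 UMIs in place of 30663388, with 4327 Arg1 UMIs in place of 3956. In that setting 495 GA and 388 control cells that are macrophage-like in the report, with Ly6c2 at 1693 CPM and C1qa at 8.94 CPM, were named progenitor-like, so its values for both classes compare other cells. The GA class was also smaller without Harmony (24591042 UMIs), at resolution 2 (24851333), with log1p values (24376634) and for cells of at least 2000 UMIs (24138057). Its Arg1 UMIs were then 3968, 3948, 4011 and 3953. Values of these settings can thus also compare other cells, and which cells left the class was not counted.

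The count of members past the fold in macrophage-like cells, 2, was 1 without Harmony, at resolution 2, with log1p values, at 2000 UMIs or more, thinned, as a mean over cells and with naming pseudocounts of 5 and 10 CPM, and was 4 without the 5 top cells. In that last setting the limit of 20 UMIs was applied before the 5 cells were taken out. Its ratios, that of Ass1 in neutrophil-like cells below included, can rest on fewer UMIs. Ass1 in macrophage-like cells ranged from 0.15 to 1.24. The pathway median of 0.07 was -0.026 relative to the class median. In the other classes the count of 11 became 17 without doublet removal, 1 when thinned and 3 at 200 UMIs or more. Members left with fewer than 20 UMIs after thinning were not counted, so the count when thinned can fall through loss of UMIs alone. Among ratios past the fold, the direction reversed for Ass1 in erythroid-like cells (-0.44), Ass1 in neutrophil-like cells (0.96) and Arg2 in progenitor-like cells (-0.33) without doublet removal, and for Ass1 in neutrophil-like cells without the 5 top cells (0.14). Ratios under the fold changed sign more often. Ass1 in mesenchymal-like cells kept its sign in 13 of 20 settings (up to 0.75) and Sms in macrophage-like cells in 14 of 20 (down to -0.09). Sign changes also reached 0.09 for Srm in macrophage-like cells, -0.10 for Srm and -0.24 for Arg1 in mesenchymal-like cells, -0.20 for Odc1 and -0.08 for Srm in progenitor-like cells, -0.08 for Srm and -0.14 for Sms in erythroid-like cells, 0.19 for Srm in neutrophil-like cells and 0.43 for Odc1 in dendritic-like cells. The causes were not tested. No paired analysis was possible because each condition has 1 library, and no replicate could be left out for the same reason.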

Other observations

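In classes with fewer than 50 cells in a library, Ass1 had 16 and 7 UMIs in endothelial-like cells (17.8 CPM in GA, 3.25 CPM in control). Schwann-like cells had 0 Arg1 UMIs in 15 GA cells and 49 in 13 control cells, where the GA cells held only 39755 UMIs in all against 389320 and carried macrophage marker RNA at 6741 CPM against 496 CPM. Osteoclast-like cells had Sms at 185 and 202 CPM and Odc1 at 224 and 168 CPM in GA and control.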
